A study of Mus musculus with 2 samples.

Results

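The 10 genes of the MHC class I pathway described here, out of 31053 genes in the deposited matrices, were followed in mouse lung endothelial cells (ECs). They were taken by symbol: the heavy chains H2-K1 and H2-D1, their partner B2m, the peptide transporter subunits Tap1 and Tap2, the bridging protein Tapbp, the immunoproteasome subunits Psmb8, Psmb9 and Psmb10, and the transcriptional activator Nlrc5. All 10 were present in the matrices. Lung cells of wild-type C57BL/6 mice, 8 to 12 weeks old and male according to the methods of the study, were sorted for the endothelial surface protein PECAM1 at 6 h after a tail vein injection. The injection held PBS (control library) or 200000 B16F10 cells, a mouse melanoma line (metastatic library). Each library was made from the pooled cells of 2 mice and each group held 1 library, so mice could not be told apart and no difference between the libraries could be tested against a spread between replicates. Droplet libraries that count each captured RNA molecule by its unique molecular identifier (UMI) were made from the 3′ ends of the transcripts, so that a UMI stands for a molecule whatever the length of the gene. Levels are given as UMIs scaled to a total of 1000000 per pool of cells (CPM), and are compared between genes on that scale.

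MHC class I molecules are carried by almost all nucleated cells and show short peptides from the cell's own proteins to CD8 T cells. The peptides are cut by the proteasome, pumped into the endoplasmic reticulum by the TAP transporter and loaded there onto a heavy chain paired with beta-2 microglobulin. Interferons are known to raise most genes of the pathway and to exchange the 3 catalytic subunits of the standard proteasome (Psmb5, Psmb6 and Psmb7) for those of the immunoproteasome (Psmb8, Psmb9 and Psmb10).

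A barcode was kept if it held between 1000 and 5000 genes and less than 20% of its UMIs were mitochondrial, which left 7134 in the control and 6466 in the metastatic library, with medians of 6272 and 6526 UMIs per barcode. They were put into 4 endothelial classes by detection of at least 2 markers: aerocytes (Ednrb, Fibin, Tbx2), vein (Slc6a2, Car8, Bst1), artery (Gja5, Bmx, Fbln5) and general capillary cells (Gpihbp1, Aplnr, Kit, Lpl, with none of the other classes called). General capillary cells made up 5020 control and 4519 metastatic barcodes, aerocytes 1364 and 1086, vein 247 and 304, and artery 63 and 59. The label of endothelial cells was borne out in all 4 classes, where Pecam1, Cdh5, Cldn5, Egfl7, Kdr and Tek together ran from 5037 to 9525 CPM, against 59.7 to 340 in barcodes marked as leukocytes. The sort had no gate against leukocytes, and 16 barcodes were called in both libraries. RNA of other cells moved with the libraries inside the classes, and not in 1 direction. In general capillary cells Ptprc, the pan-leukocyte marker, was at 9.44 CPM in the control and 13.9 in the metastatic library, whereas summed monocyte or macrophage markers were at 329 and 214, epithelial markers at 1795 and 1074 and red cell markers at 1956 and 822. In vein the epithelial markers stood at 131 and 3951, the monocyte or macrophage markers at 31.3 and 617 and the red cell markers at 441 and 1345, and in artery the monocyte or macrophage markers at 26.4 and 275. In aerocytes the epithelial markers were at 665 and 96.6, the red cell markers at 1292 and 846 and Ptprc at 2.12 and 7.14. Platelet markers were at 175 and 271 in general capillary cells, 76.5 and 157 in aerocytes, 68.9 and 74.7 in vein and 14.2 and 148 in artery. An alternative added after the data were seen left out the barcodes that held more than 10 UMIs of markers of another cell type. Its values are given below for all 4 classes, in aerocytes as a count of members past the fold. Red cell markers did not enter that rule, and their part in the differences was not tested.

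H2-K1, H2-D1, Tapbp, Tap1, Tap2, Psmb8 and Psmb9 lie on chromosome 17 of the mouse genome (GRCm38), in and beside the class II region of the MHC. Tapbp (chr17:33915899-33929292) is followed by H2-K1 (chr17:33996017-34000347, minus strand), and then by the neighbours Psmb9 (chr17:34181987-34187764, minus strand), Tap1 (chr17:34187553-34197225), Psmb8 (chr17:34197721-34201454) and Tap2 (chr17:34203527-34216321). H2-D1 (chr17:35262730-35267499) lies apart from them. Psmb9 and Tap1 are read outward from a shared stretch, with 225 bases between their RefSeq starts. In the GENCODE coordinates above the genes overlap in this stretch, with Tap1 from 34187553 and Psmb9 up to 34187764. B2m (chr2:122147686-122153083), Psmb10 (chr8:105935735-105938444, minus strand) and Nlrc5 (chr8:94434356-94527272) lie elsewhere.

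Sequences upstream of the start sites are shown because the heavy chains carry nearly the same block of bases there. RefSeq windows (GRCm38.p6) of 250 bases before to 50 bases after each annotated start were at hand for 8 of the 10 members, not for Tap2 and Nlrc5. Capitals mark a kappa B match, of the letters GGGNNTTNCC, and a match to TTTCNNTT, the core bound by interferon regulatory factors. Each is read 5′ to 3′ in the direction of its gene.
H2-K1: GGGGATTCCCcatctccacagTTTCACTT
H2-D1: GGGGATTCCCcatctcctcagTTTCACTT
H2-Q6: GGGGATTCCCcatctccccagTTTCACTT
H2-Q7: GGGGATTCCCatctccccagTTTCACTT
H2-Q4: GGGATTTCCCatctccccagTTTCACTT
The H2-K1 block (chr17:34000430-34000458, minus strand) covered positions -111 to -83 from the farther upstream of its 2 starts, and the H2-D1 block (chr17:35262923-35262951, plus strand) covered positions -171 to -143. In GENCODE a longer H2-D1 transcript begins upstream of this block. Counted from 1 at the 5′ end of the block, H2-D1 differed from H2-K1 by the substitution A18T, and H2-Q6 by A18C, in both cases between the 2 matches. H2-Q7 (chr17:35439022-35439049) and H2-Q4 (chr17:35379444-35379471) had blocks of 28 bases.

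B2m and Psmb8 held other arrangements. In B2m (chr2:122147548-122147570, plus strand, positions -139 to -117) capitals mark a match to the interferon-stimulated response element TTTCNNTTTC and a kappa B match, both on the opposite strand. In Psmb8 (chr17:34198088-34198116, plus strand, positions -107 to -79) they mark TTCNNNGAA, the gamma activated sequence of interferon gamma responsive genes. These positions count from the RefSeq start. In GENCODE the Psmb8 gene begins upstream of this block, at chr17:34197721, so the block lies inside it.
B2m: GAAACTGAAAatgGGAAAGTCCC
Psmb8: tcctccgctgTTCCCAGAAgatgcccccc
Searched on both strands, the kappa B letters were found in 3 of the 8 members with a window (H2-K1, H2-D1 and B2m). Of all 27025 genes with a window, 5.48% held them. The core TTTCNNTT was in the same 3 members and in 26.7% of all these genes. TTTCNNTTTC, which holds that core, was in 1 member and in 3.99% of the genes, and TTCNNNGAA in 1 and in 9.55%. These letter matches are a description of the windows and were not tested as binding sites.

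In general capillary cells 3 genes stood far above the others. H2-D1 was at 2567 CPM (95% counting interval 2549 to 2584) in the control and 2644 (2626 to 2663) in the metastatic library, B2m at 1769 (1755 to 1784) and 1951 (1936 to 1967), and H2-K1 at 1682 (1668 to 1696) and 2107 (2091 to 2123). Thus H2-K1 lay below B2m in the control library and above it in the metastatic library. RNA of the genes that make and load the peptides was at a far lower level: Psmb8 was at 228 and 323, Tapbp at 168 and 184, Psmb10 at 144 and 197, Psmb9 at 136 and 171, Tap2 at 98.9 and 112, and Tap1 at 82.5 and 107. Nlrc5, which activates class I promoters, was barely detected, at 5.39 (4.62 to 6.25) and 7.46 (6.52 to 8.50). Intervals here and below cover counting error only.

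**Figure D1:**
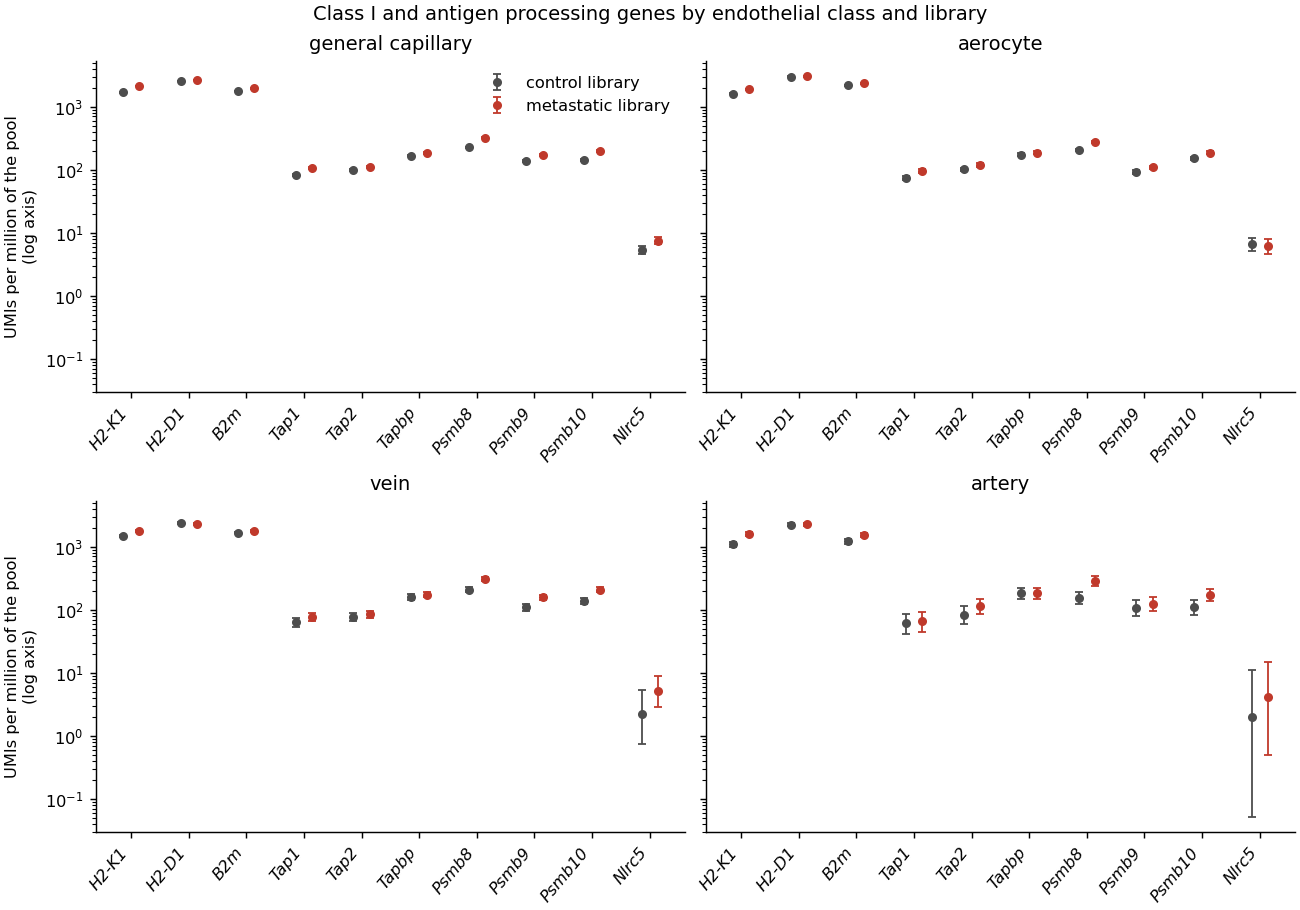
CPM (log axis) of the 10 genes in the 4 endothelial classes, in the control (grey) and metastatic (red) library, with 95% Poisson intervals of the counts. The 3 surface chain genes sit between 1097 and 3010, the processing genes between 60.8 and 323 and Nlrc5 below 10 in every class.

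All 10 members were higher in the metastatic library in general capillary cells, but to very different degrees, and the heavy chains parted. H2-K1 had a log2 ratio of metastatic over control of 0.33 (interval 0.31 to 0.34, 1.25-fold), whereas H2-D1 had 0.04 (0.03 to 0.06, 1.03-fold). B2m lay between them at 0.14 (0.12 to 0.16). H2-K1 therefore made up 39.6% (39.3 to 39.9) of the UMIs of both heavy chains in the control library and 44.3% (44.1 to 44.6) in the metastatic library. Both are paralogs of the H2-Q and H2-T genes, and how the counting software assigned reads shared between them was not stated. The separate values of H2-K1 and H2-D1 thus carry an uncertainty that the intervals do not hold.

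Psmb8, the inducible chymotrypsin-like subunit of the immunoproteasome, showed the largest ratio of the members. It had a log2 ratio of 0.50 (0.46 to 0.55, 1.42-fold), Psmb10 had 0.46 (0.40 to 0.51, 1.37-fold) and Psmb9 had 0.33 (0.27 to 0.38, 1.25-fold). In the transporter, Tap1 had 0.37 (0.30 to 0.45, 1.29-fold) and Tap2 had 0.18 (0.11 to 0.25, 1.13-fold), so that the subunits of 1 heterodimer differed in their ratio. Tapbp, the chaperone tapasin, had 0.14 (0.08 to 0.19, 1.10-fold). For Nlrc5, with 173 and 226 UMIs in all, the ratio was 0.47 with a wide interval of 0.18 to 0.76.

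A log2 ratio of 0.25 or more was taken as past the fold. In general capillary cells 6 of the 10 members were higher past the fold (Psmb8, Nlrc5, Psmb10, Tap1, Psmb9 and H2-K1) and 0 were lower. Of the 9 that passed the level set for the background (50 CPM in either library and 100 UMIs in all), which left out Nlrc5, 5 were higher, where 9.55% of the 3758 genes at that level were higher and 6.73% lower. The median log2 ratio was 0.33 over the members and 0.02 over all these genes. Without the barcodes that carried RNA of other cells, 6 members were again past the fold, and the median was 0.33. The share of all genes past the fold was not counted without these barcodes. The platelet markers were then at 59.3 and 81.5 CPM. With 1 library a group, these values describe the 2 libraries, and whether they would recur in other mice was not tested.

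In the other classes fewer cells gave wider intervals. In aerocytes, the large thin capillary cells of gas exchange, 5 of the 10 members were higher past the fold and 0 lower, beside 7.45% and 6.65% of 3908 genes. Psmb8 was there at 207 and 275 CPM (log2 ratio 0.41, 0.32 to 0.49) and Tap1 at 73.5 and 96.1 (0.39, 0.25 to 0.52), and Psmb10 had a ratio of 0.30 (0.21 to 0.40). H2-K1 and Psmb9 both stood at 0.25, at the very edge of the fold, and fell short of it under 4 of the other settings, which left 3 members past it. H2-D1 was at 2981 and 3010, a ratio of 0.01 (-0.01 to 0.04), and Nlrc5 at -0.08 (-0.60 to 0.44). 1 of those 4 settings left out the barcodes that carried RNA of other cells. The epithelial markers in aerocytes were then at 113 and 91.9 CPM and the platelet markers at 39.9 and 54.4.

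In vein 4 of the 9 members that passed the level (Psmb8, Psmb9, Psmb10 and Tap1) were higher past the fold and 0 lower, beside 13.6% and 14.1% of 3719 genes. The interval of Tap1, at 0.28 (-0.04 to 0.60), spanned 0. Psmb10 was at 138 and 209 CPM (log2 ratio 0.60, 0.39 to 0.80), Psmb8 at 207 and 308 (0.57, 0.41 to 0.74) and Psmb9 at 110 and 159 (0.53, 0.30 to 0.77). The ratio of Psmb9 was larger here than in general capillary cells, but its intervals in the 2 classes overlapped. H2-K1 was at 1495 and 1768 (0.24, 0.18 to 0.31) and H2-D1 at 2359 and 2282 (-0.05, -0.10 to 0.01). Without the barcodes that carried RNA of other cells, which left 243 of 247 and 289 of 304, the epithelial markers in vein were at 126 and 96.0 CPM and the monocyte or macrophage markers at 25.4 and 32.5, while the red cell markers stayed at 444 and 1450. The platelet markers were at 14.8 and 46.8. The ratios in vein were then 0.31 for H2-K1, 0.01 for H2-D1, 0.65 for Psmb8, 0.59 for Psmb9 and 0.65 for Psmb10.

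Artery had the fewest cells, and 7 members passed the level there. Of these, 4 were higher past the fold and 0 lower, beside 21.6% and 17.8% of 1827 genes. H2-K1 was at 1097 and 1571 CPM (log2 ratio 0.52, 0.36 to 0.68), Psmb8 at 154 and 286 (0.89, 0.48 to 1.31), Psmb10 at 109 and 175 (0.67, 0.17 to 1.19) and B2m at 1219 and 1513 (0.31, 0.15 to 0.47). The intervals of these 4 lay above 0, and those of the other 6 members spanned it. H2-D1 again barely differed, at 2225 and 2266 (0.03, -0.10 to 0.15). Tap2, with 41 and 56 UMIs, and Tap1, with 30 and 32, fell under the 100 UMIs asked for. Nlrc5 had 1 and 2 UMIs in artery and 5 and 14 in vein, too few for a ratio. Without the barcodes that carried RNA of other cells, the monocyte or macrophage markers in artery were at 27.02 and 24.05 CPM. The platelet markers were still at 14.5 and 69.9, and their part in the ratios was not tested. The ratios were then 0.51 for H2-K1, 0.91 for Psmb8, 0.69 for Psmb10 and 0.29 for B2m.

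**Figure D2:**
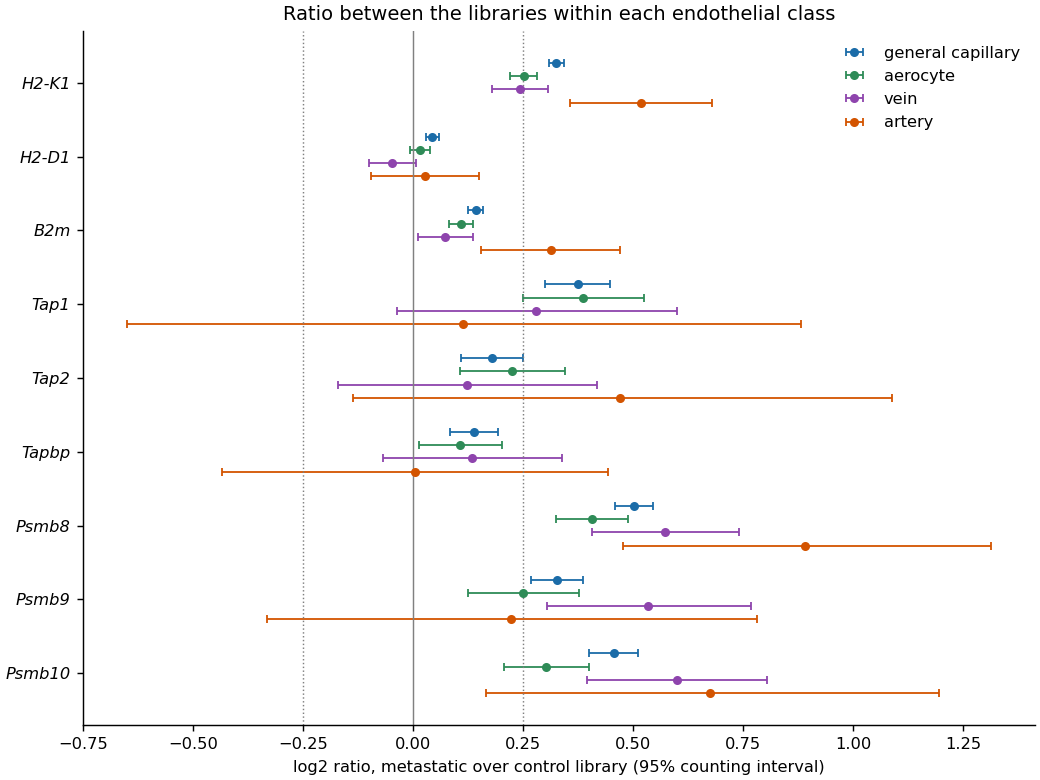
Log2 ratio of metastatic over control library for 9 genes (Nlrc5 left out for its low counts) in each endothelial class, with 95% counting intervals. The dotted lines mark 0.25 and -0.25. H2-D1 sits within 0.05 of 0 in all 4 classes, and Psmb8 between 0.41 and 0.89.

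The immunoproteasome genes were then set against the constitutive subunits whose place they take. In general capillary cells Psmb5 had a log2 ratio of 0.04 (-0.01 to 0.10), Psmb6 of 0.04 (-0.01 to 0.10) and Psmb7 of 0.00 (-0.07 to 0.07). The share of the inducible gene was therefore higher in the metastatic library. Psmb8 made up 60.0% (exact 59.1 to 60.8) of the UMIs of Psmb8 and Psmb5 in the control library and 67.3% (66.5 to 68.1) in the metastatic library, a difference of 7.33 percentage points. Psmb10 made up 58.8% (57.8 to 59.9) and 66.2% (65.2 to 67.2) of the UMIs of Psmb10 and Psmb7. Psmb9 had the smallest share, at 45.6% (44.6 to 46.6) and 50.5% (49.5 to 51.4) of the UMIs of Psmb9 and Psmb6.

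Thus RNA of the inducible subunits was already at or above that of the constitutive subunits in 2 of the 3 pairs in the control library. The shares of the same pairs differed among the classes. Psmb9 took 31.0% (29.5 to 32.6) and 36.0% (34.2 to 37.8) in aerocytes, 37.5% and 47.7% in vein and 33.3% and 44.5% in artery. Psmb8 took 51.9% and 57.5% in aerocytes, 55.1% and 65.0% in vein and 53.5% and 62.3% in artery, whereas Psmb10 took 59.0% and 64.6%, 55.6% and 67.1%, and 52.9% and 62.5% in the same order. Among the constitutive genes, Psmb6 was itself lower in metastatic artery (log2 ratio -0.46, -0.90 to -0.02), where Psmb9 had 0.22 (-0.33 to 0.78), while the intervals of Psmb5, Psmb6 and Psmb7 spanned 0 in aerocytes and vein. In each of the 12 pairs and classes the metastatic share was the higher, and the intervals of the 2 libraries overlapped only in artery.

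**Figure D3:**
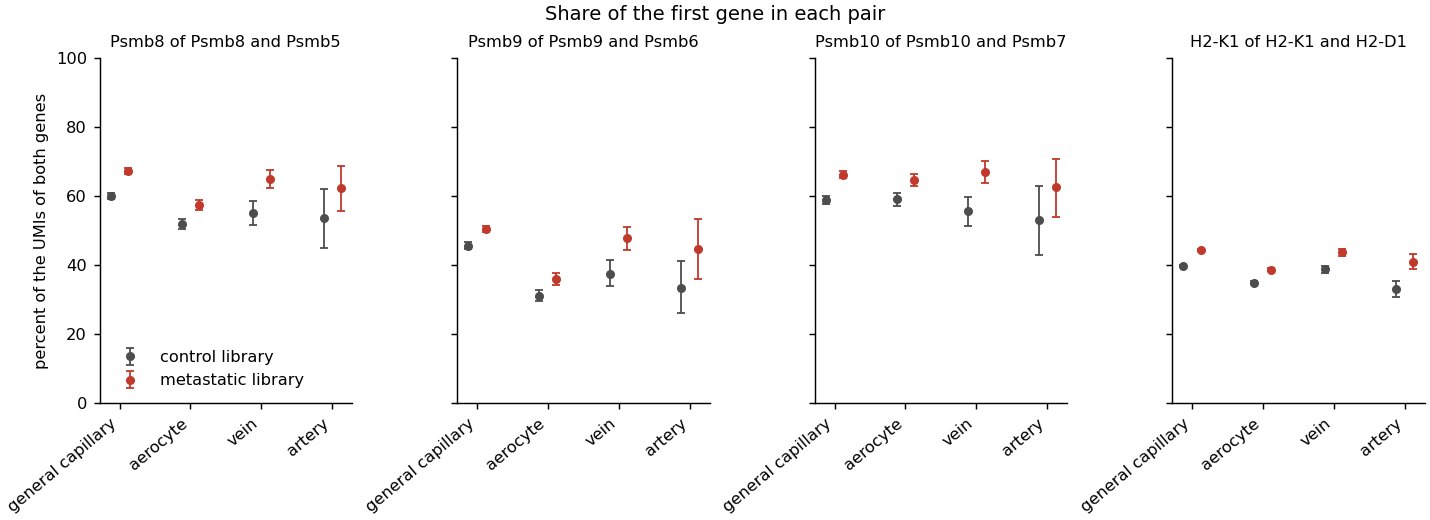
Percent of the UMIs of 2 genes that came from the first, for the 3 proteasome pairs and for the heavy chains, by class, with exact 95% intervals. In every panel and class the metastatic library (red) is above the control library (grey), and the artery intervals of the proteasome pairs are the widest.

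The levels were also described per cell, after each general capillary barcode had been thinned to 2000 UMIs, which left out 73 control and 58 metastatic barcodes as too shallow. H2-D1 was detected in 98.5% and 98.6% of the barcodes, with a median of 5 UMIs in both libraries. H2-K1 was detected in 93.9% (93.2 to 94.5) and 96.5% (95.9 to 97.0), and its median was 3 UMIs in the control and 4 in the metastatic library. The surface chains were thus found in nearly all cells of both libraries. For the processing genes the share differed: Psmb8 went from 36.3% (35.0 to 37.7) to 46.1% (44.7 to 47.6), Psmb10 from 24.8% to 31.1%, Psmb9 from 22.9% to 28.2% and Tap1 from 14.6% to 18.8%. Tap2 had overlapping intervals, at 18.5% (17.4 to 19.6) and 19.5% (18.3 to 20.7).

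These shares can be read against barcodes of other cells at the same depth. Of the 36 control and 30 metastatic barcodes marked as B cells, 50.0% (32.9 to 67.1) and 63.3% (43.9 to 80.1) held a UMI of Psmb8, and of 29 and 26 marked as monocytes or macrophages, 41.4% (23.5 to 61.1) and 34.6% (17.2 to 55.7) did. No cell type in the sort is known to lack these genes, so no background share could be set. The free RNA of barcodes with 11 to 50 UMIs was estimated to make up 7.04% of the UMIs of control and 3.35% of those of metastatic general capillary cells. After it was subtracted, the member ratios in general capillary cells kept their direction.

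The other genes of the pathway gave a mixed picture, described with the same fold in general capillary cells. Of all 3758 genes that passed the level there, 9.55% were higher and 6.73% lower, the shares to set beside each count below. Of 11 other class I and class I-like heavy chains in the matrices 5 passed the level of 50 CPM, and 3 of these were higher: H2-Q6 at 306 and 400.5 (log2 ratio 0.39), H2-Q7 at 526 and 681 (0.37) and H2-T22 at 146 and 189 (0.38). H2-Q4 had 0.12 (0.09 to 0.15) and H2-T23, which encodes Qa-1, had -0.02 (-0.06 to 0.03). Whether the blocks printed above have a part in these ratios was not tested. The windows of H2-T22 and H2-T23 both held the core TTTCNNTT without the kappa B letters. The H2-Q genes are close paralogs of each other, and their reads may be split between them.

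Of the 9 genes for loading and trimming in the endoplasmic reticulum, 1 was higher past the fold, a count near the 9.55% of all genes. It was Tapbpl, the tapasin-related editor TAPBPR, at 57.8 and 81.2 CPM (log2 ratio 0.49, 0.40 to 0.58). The general chaperones Calr and Canx had ratios of 0.03 and -0.01, and Pdia3, which works beside tapasin, had -0.08 (-0.12 to -0.03). Erap1, which trims peptides, had 0.17 (0.07 to 0.27). The median of this list was 0.17.

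Of the 11 other subunits of the 20S core, 0 were past the fold in either direction, beside 9.55% and 6.73% of all genes. Their median was 0.04. Psma6 had the lowest ratio of them, -0.19 (-0.24 to -0.13). Of the proteasome activators and assembly factors 4 of 7 passed the level, and 2 were higher: Psme2 at 131 and 189 CPM (log2 ratio 0.52, 0.46 to 0.58) and Psme1 at 257 and 315 (0.29, 0.25 to 0.34). These encode the subunits of the interferon-inducible PA28 cap, whereas Psme4, the PA200 cap, had -0.14 (-0.22 to -0.06). Pomp, the assembly factor of the core, had 0.15 (0.10 to 0.19).

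Of the 15 regulators 7 passed the level and 3 of these were higher, beside 9.55% of all genes. Among these 3, Rela, an NF-kappa B subunit, was at 69.4 and 85.7 CPM (log2 ratio 0.31, 0.22 to 0.39) and Irf1, an interferon regulatory factor, at 246 and 302 (0.29, 0.25 to 0.34). Irf2 had 0.07 and Nfkb1 0.11. Under the level, and named after their values were seen, were Ciita, the class II counterpart of Nlrc5, with 7.07 and 15.4 CPM (1.13, 0.90 to 1.36) and Relb with 21.2 and 38.7 (0.87, 0.73 to 1.01). Of the interferon receptors 4 of 5 passed and 1 was higher, beside the same share of all genes. It was Ifngr1 at 181 and 235 (0.37, 0.32 to 0.42), a chain of the interferon gamma receptor, while Ifnar2 had -0.03 (-0.10 to 0.03).

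The classes were next compared with each other, which 2 libraries per class allowed. UMI sums per library and class were fitted with edgeR's quasi-likelihood test with the library as a block, and p-values were adjusted over all genes of a contrast. The fit rested on 1 residual degree of freedom. For each gene edgeR also drew on the spread over all genes tested. This raised the total to 11.1 (aerocyte), 9.14 (vein) and 13.0 (artery) degrees of freedom. The p-values thus rest largely on a spread shared between genes. That spread is of the class difference between these 2 libraries, which had different treatments. Median depth differed too, with 5950 and 6275 UMIs per general capillary barcode against 7911 and 8140 per aerocyte.

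Aerocytes had more B2m and H2-D1 and less Psmb9 than general capillary cells. B2m stood at 2176 CPM in control aerocytes and 1769 in control general capillary cells, and at 2345 and 1951 in the metastatic library (edgeR log2 difference 0.28 ± 0.03 SE, adjusted p = 2.21e-05). For H2-D1 the difference was 0.20 ± 0.03 (adjusted p = 0.000213). Psmb9 had the largest difference, at 91.9 against 136 in the control and 109 against 171 in the metastatic library (-0.60 ± 0.05, adjusted p = 1.08e-06). Its neighbour Tap1 was lower by less (-0.16 ± 0.05, adjusted p = 0.0258). Psmb8 (-0.18 ± 0.04, adjusted p = 0.00498) and H2-K1 (-0.11 ± 0.03, adjusted p = 0.0198) were also lower.

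Hence in aerocytes the heavy chains went in opposite directions, H2-D1 up and H2-K1 down against general capillary cells, in both libraries. In all 2 members were higher and 4 lower of the 10 tested by edgeR, beside 23.7% and 22.2% of the 13056 genes. Tap2 (adjusted p = 0.323), Tapbp (0.465), Psmb10 (0.963) and Nlrc5 (0.968) did not pass. The calls of B2m, H2-D1 and Psmb9 were made under all 10 settings tried, with adjusted p of at most 0.0344, whereas those of H2-K1 and Tap1 were lost under 3 settings (adjusted p of up to 0.534 and 0.525) and that of Psmb8 under 2 (up to 0.521).

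In vein 0 members were higher and 3 lower, beside 9.02% and 7.33% of 12829 genes. Tap1 was at 63.5 in vein and 82.5 in general capillary cells of the control library and at 77.0 and 107 of the metastatic library (log2 difference -0.37 ± 0.09 SE, adjusted p = 0.0201 by edgeR). Tap2 was at 78.0 and 98.9, and at 84.8 and 112 (-0.31 ± 0.09, adjusted p = 0.0354), and H2-K1 had -0.15 ± 0.04 (adjusted p = 0.0409). Both subunits of the transporter were thus lower in vein. The 3 calls were lost with DESeq2 and without the library block, where 0 members passed. That of Tap2 was also lost without the barcodes of high doublet scores (adjusted p = 0.0661 by edgeR), and that of H2-K1 in the fit of all 4 classes together (adjusted p = 0.145). Over the settings the adjusted p ran from 0.000633 to 0.319 for Tap1, from 0.00364 to 0.435 for Tap2 and from 0.00665 to 0.501 for H2-K1.

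In artery 0 members were higher and 2 lower, beside 3.49% and 3.73% of 12584 genes. These were the abundant H2-K1 (log2 difference -0.52 ± 0.07 SE, adjusted p = 0.000422 by edgeR) and B2m (-0.45 ± 0.07, adjusted p = 0.00112). H2-D1 had -0.22 ± 0.06 (adjusted p = 0.0603) and Tap1 -0.58 ± 0.19 (adjusted p = 0.0900). Both of the latter passed under some other settings. Among them was the fit of all 4 classes together, where 4 members were lower, beside 585 of 12209 genes. The calls of H2-K1 and B2m were lost only without the library block (adjusted p = 0.226 and 0.124), where 0 members passed. On simulated counts the edgeR step recovered 4% of artery genes changed by a log2 of 0.5, and 57% of those changed by 1. Members not called in artery may therefore still differ.

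**Figure D4:**
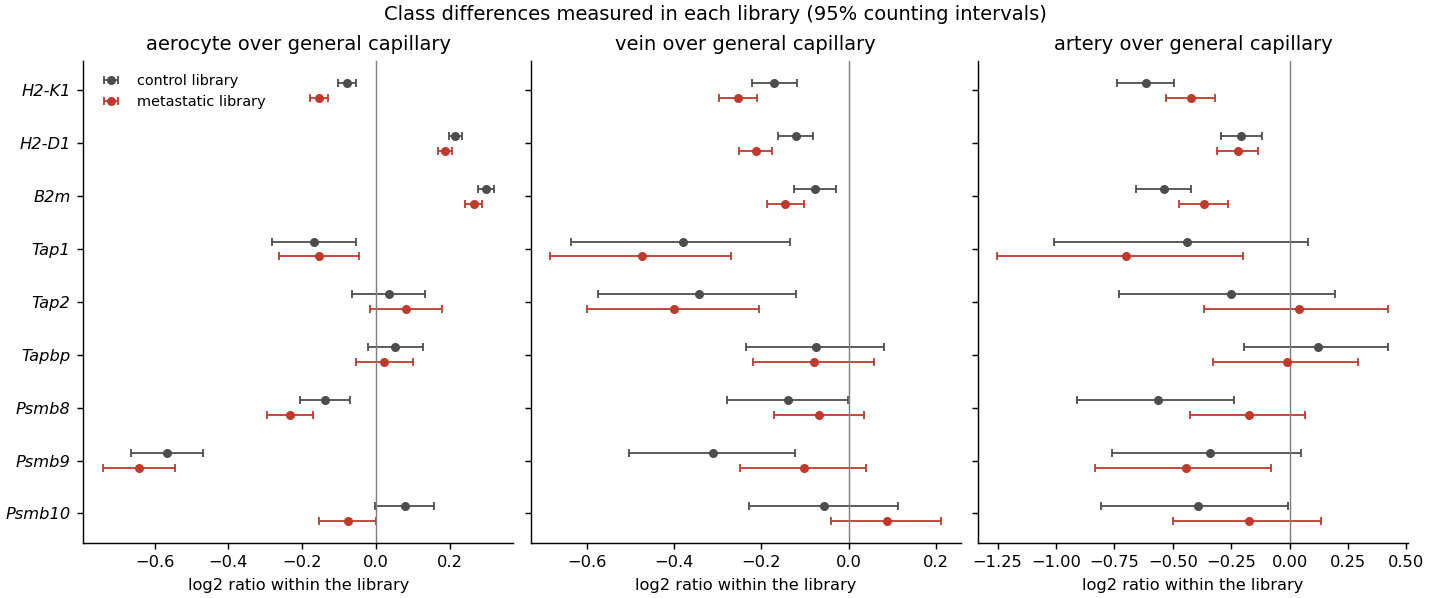
Log2 ratio of each class over general capillary cells, measured within the control (grey) and the metastatic (red) library for 9 genes (Nlrc5 left out for its low counts), with 95% counting intervals. In aerocytes B2m and H2-D1 lie above 0 and Psmb9 lies near -0.60 in both libraries.

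With these differences the classes stood in a clear order for some members only. In the control library H2-K1 was at 1682 in general capillary cells, 1592 (1569 to 1616) in aerocytes, 1495 (1444 to 1546) in vein and 1097 (1007 to 1194) in artery, and no interval overlapped the next. H2-D1 was highest in aerocytes (2981), then in general capillary cells (2567), and its intervals in vein (2296 to 2424) and artery (2095 to 2360) overlapped. The UMIs of B2m per UMI of the 2 heavy chains were 0.416 and 0.411 in general capillary cells and 0.476 and 0.478 in aerocytes, so between these classes it differed by more than between the libraries. In vein it was 0.435 and 0.436, and in artery, where the libraries lay further apart, 0.367 and 0.394. Over all 10 members, 0.688% and 0.780% of the UMIs of general capillary cells came from the pathway, and 0.524% and 0.630% of those of artery.

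Last, general capillary cells were grouped by how many of 8 interferon-stimulated genes (Isg15, Ifit1, Ifit2, Ifit3, Irf7, Rsad2, Usp18 and Oasl2) they held after thinning to 2000 UMIs. In the control library 3140 cells held 0 and 145 held 4 or more, and in the metastatic library 2578 and 183. Median depth was alike over these groups, from 5871 to 6751 UMIs. Cells of 1 library are not replicates, so this is a description.

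Members stood higher in cells with more of these genes, steeply for some and hardly for others. Tap1 was at 71.0 CPM in control cells with 0, at 111 with 2 and at 154 with 4 or more, and in the metastatic library at 89.9, 140 and 197. From 0 to 4 or more this was 2.17-fold in the control and 2.19-fold in the metastatic library. Psmb8 went from 205 to 421 (2.05-fold) and from 284 to 550 (1.94-fold), and Psmb9 was 1.77-fold and 1.49-fold higher. H2-D1 was at the other end, at 2523 and 2836 in the control (1.12-fold) and at 2614 and 2998 in the metastatic library (1.15-fold), and H2-K1 at 1.20-fold and 1.23-fold. Nlrc5 had the largest fold, 3.32 and 2.51, from 14 and 19 UMIs in cells with 4 or more. Tapbp was 1.54-fold higher in the metastatic library. In the control library it was 1.14-fold, and its log2 interval (-0.04 to 0.41) spanned 0.

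The libraries were then compared within these groups. In cells with none of the 8 genes detected, the log2 ratio of metastatic over control was 0.33 for H2-K1, 0.47 for Psmb8, 0.46 for Psmb10, 0.36 for Psmb9 and 0.34 for Tap1, close to the values over all cells. In cells with 4 or more it was 0.36 for H2-K1, 0.39 for Psmb8, 0.53 for Psmb10, 0.35 for Tap1 and 0.11 (-0.16 to 0.37) for Psmb9. Tapbp had 0.57 (0.30 to 0.85) there, against 0.14 over all cells. In cells with 3 the ratios were lower, at 0.23 for H2-K1, 0.35 for Psmb8, 0.28 for Psmb9, 0.21 (-0.07 to 0.49) for Psmb10 and 0.17 (-0.16 to 0.51) for Tap1. H2-D1 had -0.09 (-0.17 to -0.02) there and Tapbp -0.21 (-0.48 to 0.07). H2-K1 had 1.20-fold from 0 to 4 or more in the control library and 1.25-fold between the libraries, whereas Tap1 had 2.17-fold and 1.29-fold. A UMI of such a gene may be missed in a thinned cell, so 0 detected does not mean that a cell lacked them.

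**Figure D5:**
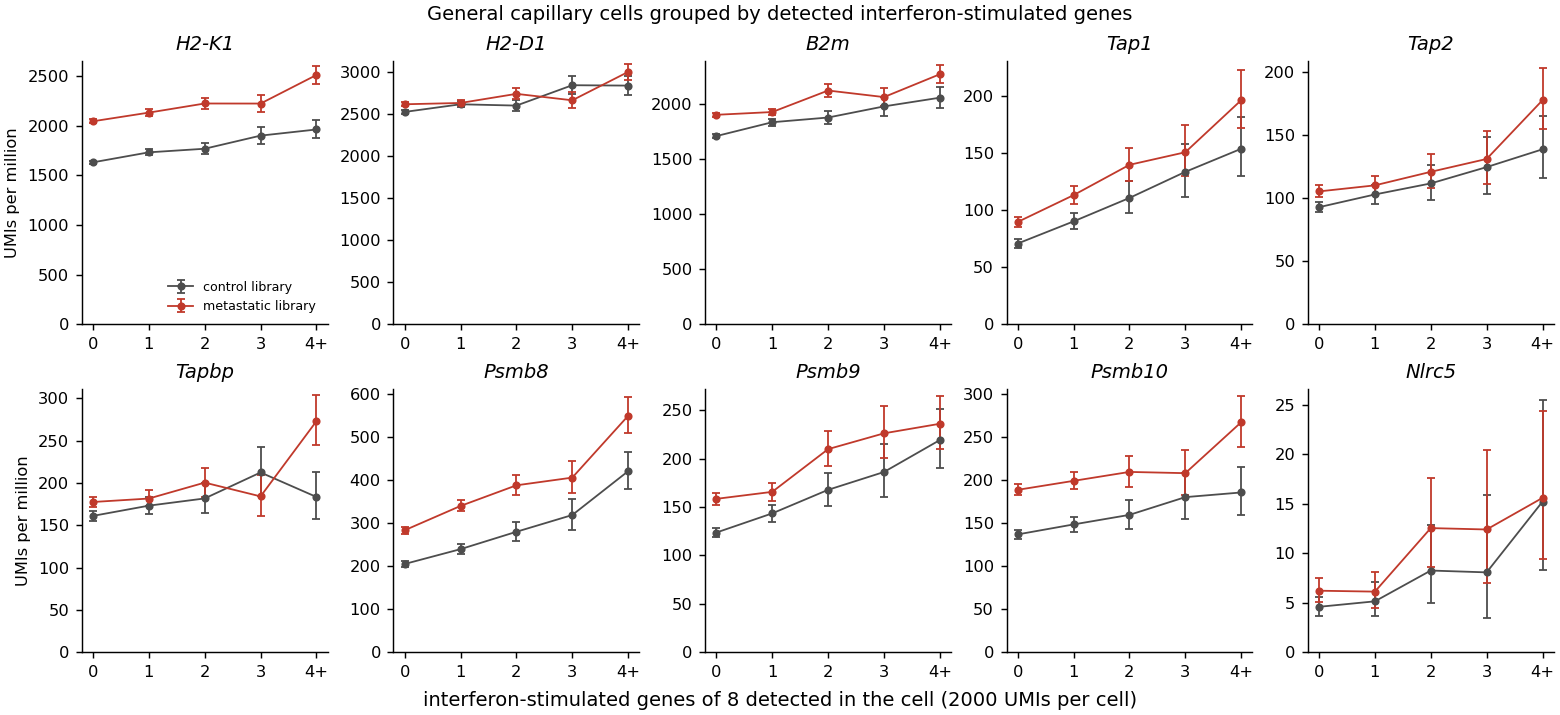
CPM of each of the 10 genes (vertical axes start at 0) in general capillary cells that held 0, 1, 2, 3 or 4 or more of 8 interferon-stimulated genes, with 95% Poisson intervals, control library in grey and metastatic library in red. From left to right Tap1 is 2.17-fold and 2.19-fold higher. The red line lies below the grey only for H2-D1 and Tapbp, both in cells with 3.

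Over the 8 pools (4 classes in 2 libraries) the mean centred log2 level of the 10 members was lowest in control artery (-0.44) and highest in metastatic general capillary cells (0.32). Nlrc5 weighed as much as any other member here, though it had 1 and 2 UMIs in artery and 5 and 14 in vein. The low artery and vein values and the correlations with this mean rest in part on those few UMIs. Among 2709 other genes with at least 50 CPM in every pool, those whose levels followed the mean most closely were Hdac7 (Pearson r = 0.97 over the 8 pools), Snrpd3 (0.97), Brd7 (0.96) and Srsf9 (0.95). The pools share 2 libraries and these 4 were picked as the highest, so the values are a description.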

How the data were processed

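Lung cells sorted for PECAM1 from 2 groups of mice were measured as 1 library each. The authors deposited raw UMI counts per gene and barcode for all 6794880 barcodes of the list, made with Cell Ranger on mm10 (version 3.1.0 per the file headers), with no filter or normalization. The annotation release and the treatment of reads shared between paralogs are not given in the sources used here. The libraries held 67929614 and 64733724 UMIs. From these counts, barcodes were filtered and classed as described, UMIs were summed per library and class, and levels were given as CPM with exact Poisson intervals, ratios with exact conditional binomial intervals and shares with exact Clopper-Pearson intervals, all at 95%. A gene entered the background with 50 CPM in either library and 100 UMIs in all. Classes were compared with edgeR 4.0.16 (glmQLFit, glmQLFTest, TMM, filterByExpr) with Benjamini-Hochberg adjustment at 0.05, and with DESeq2 1.42.0 as an alternative, both in R 4.3.3. Doublets were kept, and leaving out the 407 and 334 barcodes with the highest doublet scores was an alternative, beside other limits on genes and mitochondrial UMIs, a stricter class rule, subtraction of free RNA, other scalings and averaging over cells. The mitochondrial limit removed 2 control barcodes. The edgeR step was tested on simulated data. At a true log2 change of 0.5 it recovered 59% of the changed genes in aerocyte, 49% in vein and 4% in artery. At a change of 1 it recovered 94%, 89% and 57%. Coordinates came from GENCODE M21 and upstream sequences from RefSeq. All 10 members were named. From each list of pathway genes at most 4 past the fold were named, with others beside them for contrast. The members, the lists and the tests were chosen with earlier results of these data known. No column of the authors' own comparisons was used. The values of 1 gene of the list of regulators are not reported here.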

Additional observations from a re-analysis of the deposited data

Results flagged for a closer look

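In the 29 control and 26 metastatic barcodes marked as monocytes or macrophages, 3 genes differed between the libraries in the opposite direction to general capillary cells, with intervals on opposite sides of 0. H2-K1 was at 868 and 583 CPM (log2 ratio -0.58, interval -0.84 to -0.32), H2-D1 at 1572 and 1012 (-0.64, -0.83 to -0.44) and B2m at 1326 and 969 (-0.45, -0.66 to -0.25), against 0.33, 0.04 and 0.14 in general capillary cells. In barcodes marked as B cells, 36 and 31 in number, Psmb9 was at 167 and 58.8 CPM from 29 and 9 UMIs (-1.51, -2.77 to -0.39), against 0.33 in general capillary cells. The barcodes marked as monocytes or macrophages also differed in their own markers, with the monocyte or macrophage list at 15429 and 10659 CPM and the neutrophil list at 1782 and 3275. The difference between these barcodes and the capillary cells was not tested, and 2 pooled mice gave each library.

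Barcodes with 11 to 50 UMIs, which hold free RNA and were used only to subtract it, showed H2-K1 at 979 CPM in the control and 1410 in the metastatic library, from 75 and 74 UMIs (log2 ratio 0.53, 0.04 to 1.01). Psmb8 differed in the other direction in the same barcodes, at 339 and 95.3 CPM from 26 and 5 UMIs (-1.83, -3.57 to -0.43), and the intervals of the other 8 members spanned 0.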

How the results depend on the processing

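No paired analysis was possible because each group held 1 library and the labels carry no replicate numbers. Between the libraries, the medians of the members and the counts past the fold were recomputed under 10 settings, and in general capillary cells also within 4 groups of equal size by depth. The latter and the removal of barcodes carrying RNA of other cells were added after the data were seen. Medians stayed between the median lower bound and the median upper bound of the members' intervals, except in depth group 2 (0.21 against 0.33 over all). These bounds are not an interval for the median itself. The count of 5 members past the fold in aerocytes was 3 with 1500 to 5000 genes, with TMM factors, with the mean of the share per cell and without barcodes carrying other cells. The share of all genes past the fold was counted only under the filters first described. Among ratios past the fold, Nlrc5 in depth group 2 (-0.065) was the 1 that changed sign. Ratios near 0 took either sign: over the settings H2-D1 ran from -0.02 to 0.02 in aerocytes, from -0.02 to 0.09 in artery and from -0.08 to 0.01 in vein, Tapbp in artery from -0.04 to 0.10 and Nlrc5 in aerocytes from -0.11 to 0.07. Unthinned, the share of general capillary cells with a UMI of H2-D1 differed by -0.024 percentage points.

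Between the classes, the count of members lower in aerocytes (4) was 2 with DESeq2, 1 with all 4 classes in one fit and 1 without the library block. In vein (3) it was 0 with DESeq2, 0 without the block, 2 without high doublet scores and 2 with all 4 classes in one fit. In artery (2) it was 4 with all 4 classes in one fit, 4 with no filter on low counts, 4 without barcodes carrying other cells and 0 without the block. Lower calls among all genes moved too. In aerocytes they were 2895 of 13056 in the main fit, then 1493 of 12549, 2042 of 12209 and 1394 of 13056 in the order above. In vein they were 940 of 12829, then 450 of 12082, 353 of 12829, 954 of 12650 and 1085 of 12209. In artery they were 469 of 12584, then 585 of 12209, 674 of 19422, 635 of 12186 and 166 of 12584. Over all genes, edgeR called 5991 in aerocytes, 2097 in vein and 908 in artery, DESeq2 3056, 1197 and 623, and edgeR without the block 3005, 1026 and 427. Without barcodes carrying other cells it called 3160 in vein. Leaving out a library gives the ratio within the other, with no test. The cause of these differences was not tested.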
